A study of Mus musculus with 9 samples.

Results

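The contrast of 3-acetylpyridine with saline in the mouse cerebellum rests on 6 of the 9 libraries of this study: 3 labelled 3AP, from mice given 3-acetylpyridine (3-AP), and 3 labelled control, from mice given saline. The members were all genes with a name in the deposited count files, 53924 of 55808 rows, and 16634 of them had enough reads to be tested. The other 3 libraries, from mice given 3-AP after PLX3397, an inhibitor of the CSF1 receptor used to deplete microglia, entered no difference. They added to the estimate of spread and to the choice of genes with enough reads. The labels give the tissue of every library as cerebellum, and they give no strain, age, dose or time after treatment. Whether libraries of a group came from separate animals is not in the labels, so p-values measure only how much these samples vary, and that variation may be technical.

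3-AP is an analogue of nicotinamide that is taken into NAD in its place and destroys neurons of the inferior olive in the brainstem. The axons of those neurons are the climbing fibres, which end on Purkinje cells of the cerebellum, and their loss causes ataxia. Glia of the cerebellum (microglia, astrocytes with the Bergmann glia of the Purkinje cell layer, and oligodendrocytes) answer injury by changing which genes they express, and interferon is among the signals they answer to. The title of the study names microglial inflammation, Purkinje cell excitability and ataxia as its subject, and this contrast asks what 3-AP itself changed in the tissue.

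The 6 libraries held 19851898 to 20908982 estimated counts over all rows, unnamed ones included, with 22002 to 23155 rows above 0. Calbindin (Calb1), which marks Purkinje cells, stood at 833 TPM in control and 774 TPM in 3AP, and Gabra6, a GABA receptor subunit of granule cells, at 463 and 383 TPM, where TPM is the deposited level corrected for transcript length. Levels from here on are in CPM, counts scaled to library size, unless TPM is named. The first principal component of the 6 libraries held 44.3% of the variance and separated the 3AP libraries (21.5 to 37.3) from the controls (-34.7 to -25.8). The summed level of 16 choroid plexus markers varied from 350 to 5418 CPM between control libraries and from 975 to 2721 CPM between 3AP libraries, and these ranges overlap. In tissue RNA of this kind, fewer cells of a type and less RNA per cell cannot be told apart.

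After 3-AP, 820 genes passed an adjusted p of 0.05 in edgeR's quasi-likelihood test, which is 4.93% of those tested. Of these, 623 were higher in 3AP (3.75%) and 197 were lower (1.18%). The 2 sets were unlike in size of change and in level. Genes called higher had a median fold of 2.45 and a median control level of 4.75 CPM, and 378 of them changed at least 2-fold and 57 at least 10-fold. Genes called lower had a median fold of 1.40 and a median control level of 65.8 CPM, and 25 of them changed at least 2-fold and none 10-fold. Calls of at least 2-fold in either direction made up 2.42% of tested genes. The median log2 fold change of all tested genes was 0.00. In every called gene the control and 3AP libraries did not overlap, as was the case for 24.7% of all tested genes. The count of calls fell to 487 without control library 1, 515 without control library 2, 466 without 3AP library 1 and 509 without 3AP library 2. A gene near 0 in control, or near 0 in 3AP, could enter the test only through libraries of the other groups. Higher genes made up 76.0% of calls, and 76.6% with no filter on low counts.

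**Figure D1:**
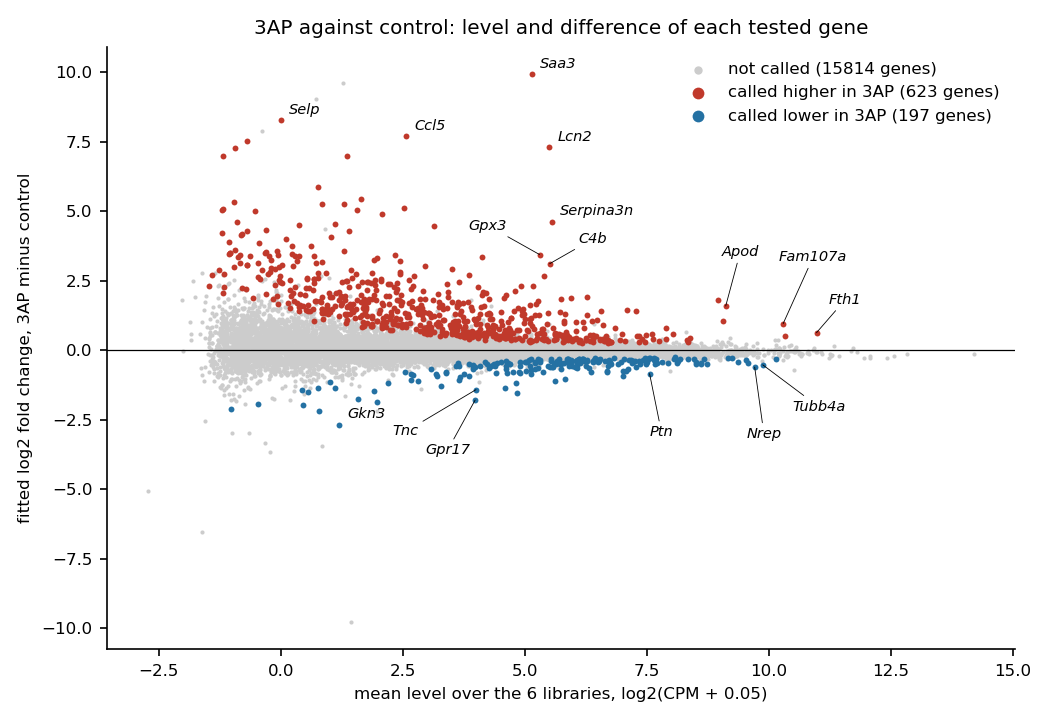
Each point is 1 of the 16634 tested genes, with its mean level over the 6 libraries on the x axis, log2(CPM + 0.05), and its fitted log2 fold change, 3AP minus control, on the y axis. The 623 genes called higher spread upward at low and middle levels, and the 197 called lower lie close below 0 at higher levels.

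To describe the contrast by function, 60 lists of genes were read, with 1225 of their 1344 genes tested. The lists were chosen with earlier results of these data known, so their counts are a description and not a test. They held 298 of the 820 called genes, and 522 called genes were in no list. A gene can stand in more than 1 list. By count, the lists of antiviral effectors (33), myeloid signalling (18) and reactive astrocyte genes (17) had the most members called higher, and sterol synthesis and uptake (8) had the most called lower, as the plot of calls per list shows.

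**Figure D2:**
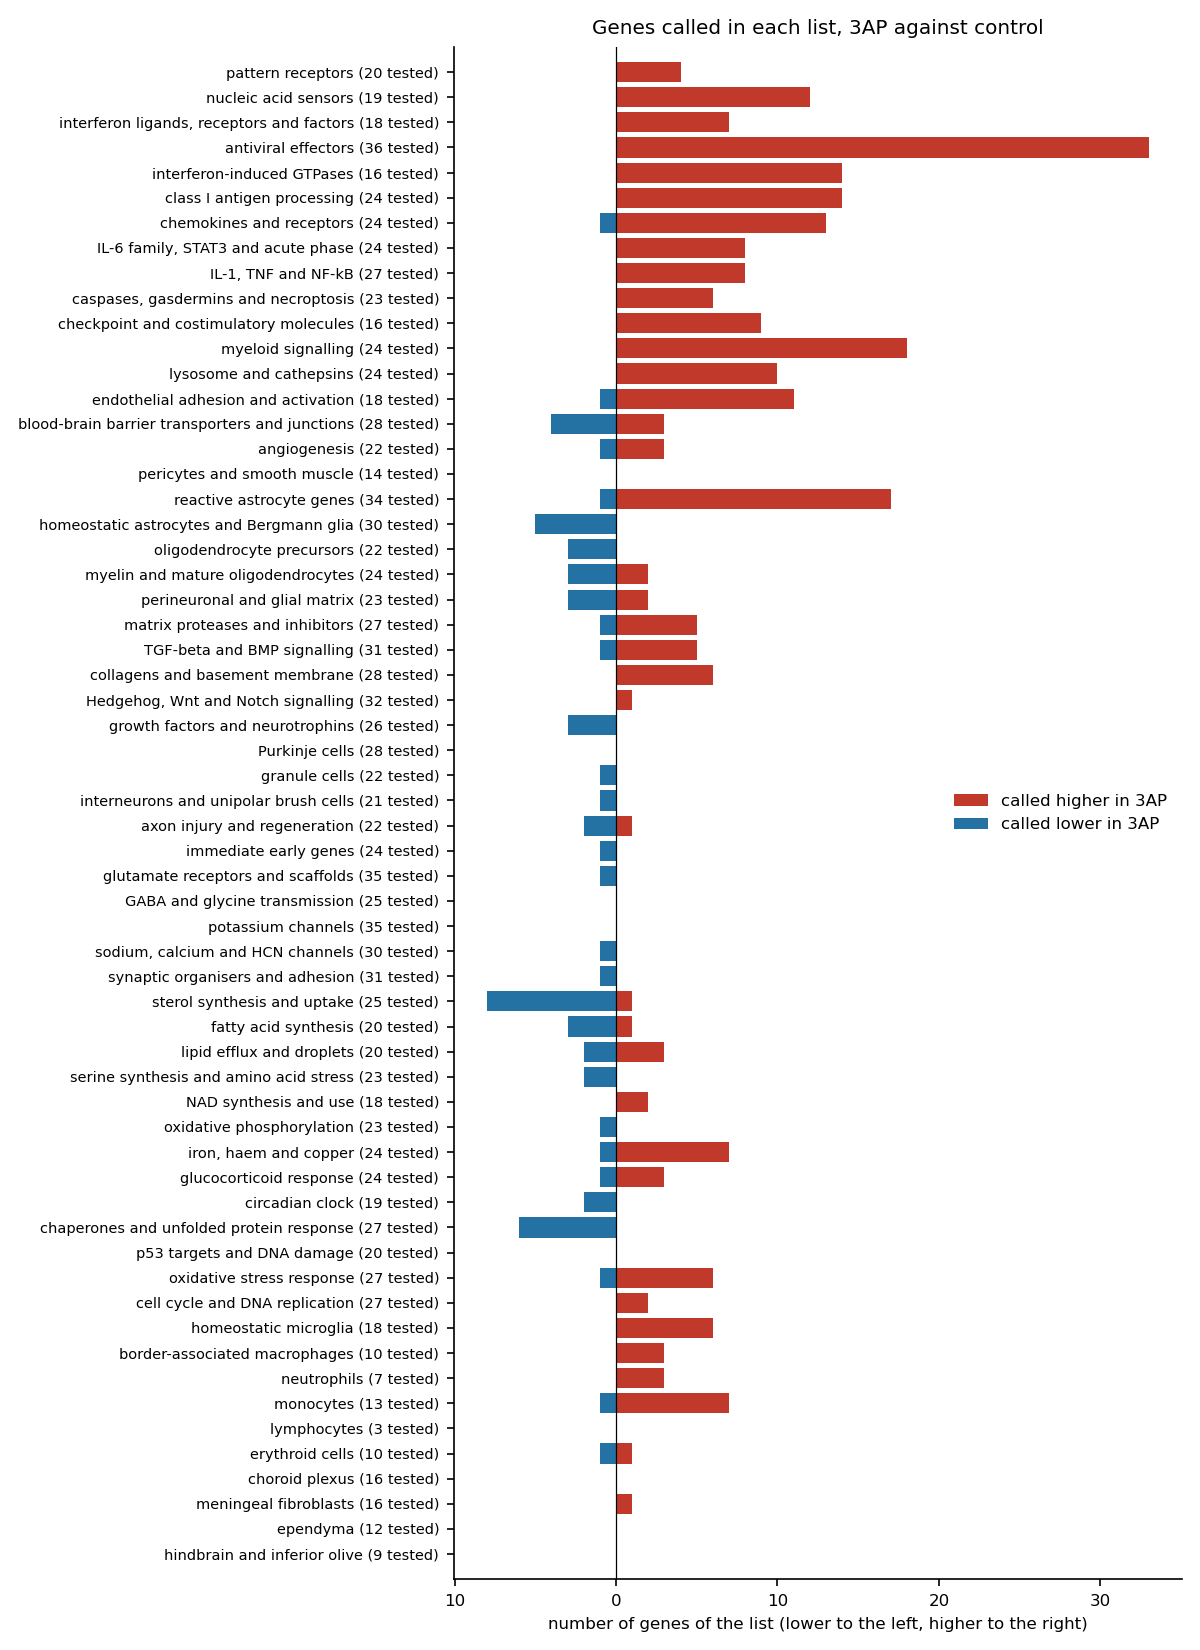
Bars give the number of genes of each list called higher (to the right) or lower (to the left) in 3AP, with the number tested in the label. The list of antiviral effectors reached 33 of 36 genes higher, and the lists of Purkinje cells, GABA and glycine transmission and potassium channels had no call. Over all tested genes 4.93% were called.

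Most sensors of foreign or misplaced nucleic acid rose. Of 19 tested genes of the list 12 were called higher and none lower (median log2 fold change 1.07). Ifi204 (chr1:173747293-173767069), a sensor of DNA, stood at 0.294, 0.103 and 0.0974 CPM in control libraries 1 to 3 and at 6.62, 5.01 and 5.33 CPM in 3AP libraries 1 to 3. The groups lay far apart, with a fitted 33.0-fold rise (log2 5.04, SE 0.40, edgeR adjusted p 2.4e-05). Zbp1 (chr2:173206612-173218959), which binds Z-form nucleic acid and can start necroptosis, rose 38.3-fold, from 0.117 ± 0.0800 to 4.68 ± 1.53 CPM (mean ± SD, n = 3 libraries in each group, as throughout). Among the cytosolic sensors of RNA, Ddx58 (chr4:40203777-40239825), which encodes RIG-I, rose from 3.83, 4.21 and 3.51 CPM to 13.4, 14 and 12.7 CPM. That is a log2 fold change of 1.80 (SE 0.15, edgeR adjusted p 2.9e-05), and the SD within each group was under 1 CPM. Oas1a, which makes the second messenger that activates RNase L, rose 6.86-fold. Oas3, of the same family, had 2 counts in control and 75 in 3AP, too few to be tested (ratio 37.7, 95% counting interval 10.1 to 317). Of 20 tested pattern receptors, a list that holds the Toll-like receptors, 4 were called higher (Tlr1, Tlr2, Tlr13 and Cd14), and there were 2 without control library 1 or 2 and 1 without 3AP library 1.

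The interferon pathway between sensor and effector was uneven. Interferons signal through a receptor to a complex of STAT proteins and IRF9 that turns on interferon-stimulated genes. The ligand genes Ifnb1, Ifna2, Ifna4 and Ifng had 0 counts in all 6 libraries, which allows up to 3 counts in each group. The receptor chains Ifnar1 (50.2 ± 2.10 and 54.8 ± 2.87 CPM, edgeR adjusted p 0.46) and Ifnar2 (18.1 ± 2.26 and 23.6 ± 2.33 CPM, 0.084) did not pass the test. Ifnar2 passed without 3AP library 3 (adjusted p 0.043). Within the complex Irf9 rose from 7.21, 7.54 and 9.55 CPM to 22.1, 23.6 and 20.7 CPM (log2 1.45, SE 0.13, edgeR adjusted p 4.6e-05). Stat2 rose 1.32-fold, from 56.1 ± 1.33 to 74.2 ± 2.56 CPM. The feedback inhibitor Usp18, a protease that removes ISG15 and blocks the receptor, rose 5.69-fold. In all, 7 of 18 tested genes of this list were called higher and none lower (median log2 fold change 0.35).

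Downstream effectors changed nearly as a block. Of 36 antiviral effectors 33 were called higher and none lower (median log2 fold change 1.88). Of 16 tested interferon-induced GTPases, which attack the vacuoles of intracellular pathogens, 14 were called higher (median 1.68). Of all tested genes 3.75% were called higher. As these lists were chosen with earlier results known, the difference in share is a description only. Igtp (chr11:58199556-58207592) rose from 2.40, 3.23 and 2.58 CPM to 13.1, 11.8 and 11.4 CPM, a log2 fold change of 2.14 (SE 0.17, edgeR adjusted p 2.4e-05). Its neighbour Irgm2 (chr11:58214977-58222783) rose 2.91-fold, Irgm1 2.95-fold and Gbp2 4.08-fold. Gbp2 was the least even of these, at 17.3 and 17.7 CPM in 3AP libraries 1 and 2 and at 9.88 CPM in library 3. Ifit1, which binds viral RNA that lacks a host cap, rose 5.16-fold, from 3.41 ± 0.868 to 17.6 ± 1.38 CPM. Members of these families share sequence, and expected counts divide shared reads among them, so a single member is less certain than its family.

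The interferon-stimulated response element is the letter pattern that the complex of STAT proteins and IRF9 is known to bind. It was searched on both strands as a pair of GAAA blocks with any 2 bases between them. The promoters shown are the bases before the start of the gene from RefSeq (GRCm38.p6), 5′ to 3′ along the gene, with each match in capitals, and they were chosen to show the pattern in genes that rose together. Isg15 is taken from chr4:156200819-156200968 on the minus strand and Ifit1 from chr19:34640769-34640888 on the plus strand. The GTPase genes are Igtp (chr11:58199436-58199555, plus), Irgm2 (chr11:58214857-58214976, plus), Irgm1 (chr11:48871421-48871540, minus) and Gbp2 (chr3:142620543-142620662, plus).
Isg15: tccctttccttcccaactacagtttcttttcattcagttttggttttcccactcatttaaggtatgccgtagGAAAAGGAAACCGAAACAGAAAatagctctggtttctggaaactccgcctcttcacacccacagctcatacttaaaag
Ifit1: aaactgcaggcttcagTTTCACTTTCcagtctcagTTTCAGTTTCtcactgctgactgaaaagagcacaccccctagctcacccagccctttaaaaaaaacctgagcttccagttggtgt
Igtp: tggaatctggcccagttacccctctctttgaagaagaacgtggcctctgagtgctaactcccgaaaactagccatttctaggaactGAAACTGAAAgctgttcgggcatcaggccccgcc
Irgm2: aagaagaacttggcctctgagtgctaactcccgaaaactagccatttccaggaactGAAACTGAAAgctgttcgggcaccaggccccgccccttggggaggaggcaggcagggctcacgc
Irgm1: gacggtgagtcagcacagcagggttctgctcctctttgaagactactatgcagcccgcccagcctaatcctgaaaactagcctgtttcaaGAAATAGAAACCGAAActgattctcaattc
Gbp2: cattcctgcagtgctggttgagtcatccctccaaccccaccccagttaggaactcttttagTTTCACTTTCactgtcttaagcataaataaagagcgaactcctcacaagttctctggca
In Isg15, 3 matches overlap in a single run that ends 56 bases before the start. Igtp and Irgm2 hold the same match, GAAACTGAAA, which ends 24 bases before the start in Igtp and 54 in Irgm2. Their longest shared run, 38 bases, lies before the match and ends at a base that differs. The letters just after that base are again the same in both and hold the match. The match in Igtp and Irgm2 thus lies in sequence that the 2 promoters share. The match in Gbp2, TTTCACTTTC, reads on the opposite strand, and the same letters stand in Ifit1. A match is a description of letters and not a measured binding site.

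Over a window from 250 bases before to 50 after the start, 68 of the 476 genes called higher that had a promoter in the table held the element (14.3%). It stood in 5 of 150 genes called lower (3.33%), in 369 of 11531 genes tested and not called (3.20%) and in 1079 of all 27025 genes of the table (3.99%). Among the lists it stood in 9 of 10 GTPase genes with a promoter, in 12 of 28 antiviral effectors, in 6 of 13 nucleic acid sensors and in none of 20 myeloid signalling genes. Other patterns were searched in the same windows. The gamma-activated site, TTCNNNGAA, stood in 10.9% of genes called higher, 6% of genes called lower, 8.12% of genes tested and not called and 9.55% of all. The kB site stood in 7 genes called higher (1.47%), in no gene called lower, in 0.468% of genes tested and not called and in 0.466% of all. Of the 72 promoters with the interferon element among genes called higher, 5 had a gamma-activated site that overlapped it and none a kB site. The sterol regulatory element was in no promoter of a called gene and in 27 of all.

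Many genes of class I antigen processing rose, and the general chaperones they work with did not pass the test. Of 24 genes of the list 14 were called higher and none lower (median log2 fold change 0.88). H2-T23, the non-classical class I heavy chain Qa-1, rose from 8.88, 9.49 and 12 CPM to 39.9, 40.9 and 30.7 CPM (log2 1.87, SE 0.15, edgeR adjusted p 2.4e-05). The peptide pump subunit Tap1 rose 3.52-fold, from 2.27 ± 0.187 to 8.00 ± 2.00 CPM, and the heavy chain H2-Q4 4.83-fold. The chaperones of the same pathway in the endoplasmic reticulum were calreticulin (Calr, 398 ± 35.6 and 365 ± 19.8 CPM), calnexin (Canx, 363 ± 0.804 and 328 ± 6.96 CPM) and Pdia3 (242 ± 11 and 211 ± 3.55 CPM). None of these 3 passed edgeR's test (adjusted p 0.60, 0.24 and 0.12), and Pdia3 passed in DESeq2 (adjusted p 0.044). Heavy chain genes of the H2-K, H2-D and H2-Q groups share reads and are less certain singly.

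Part of the acute-phase and reactive astrocyte genes rose, among them Saa3, with the largest fitted log2 fold change of all tested genes. Saa3 (chr7:46711998-46719615), a serum amyloid protein of macrophages and injured tissue, was near 0 in control, at 0.0982, 0 and 0.0974 CPM. In 3AP it stood at 106, 72.9 and 31.8 CPM (edgeR log2 9.92, SE 0.79, adjusted p 0.00041). Every 3AP library lay far above every control, and within 3AP library 1 was high and library 3 low. Limma-voom did not call Saa3 (adjusted p 0.13). Its relative Saa1 had 3 counts in control and 201 in 3AP (ratio 67.3, 95% counting interval 22.7 to 329). Serpina3n, a secreted protease inhibitor used as a marker of reactive astrocytes, stood at 3.53, 3.85 and 3.51 CPM in control and at 150, 76.6 and 43.9 CPM in 3AP. The 3AP libraries stood in the same order as for Saa3. The fold was 24.8 (log2 4.63, SE 0.49, edgeR adjusted p 0.0020). Lrg1, an acute-phase glycoprotein made by vessels, rose from 0.696 ± 0.322 to 7.03 ± 1.46 CPM (log2 3.33), and the copper oxidase Cp 3.61-fold.

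Of 24 tested genes of the IL-6, STAT3 and acute-phase list 8 were called higher and none lower (median log2 fold change 0.69). The transcription factor Stat3 stood at 55.2 ± 0.627 and 66.0 ± 7.46 CPM (edgeR adjusted p 0.19), and its feedback inhibitor Socs3 at 0.785, 0.308 and 2.09 CPM in control and 3.83, 4.67 and 3.97 CPM in 3AP (0.053). Control library 3 was the high one for Socs3, and without it the gene passed (adjusted p 0.0035). Of 34 tested reactive astrocyte genes 17 were called higher and 1, Nes, lower (median 0.92). Gbp2 and H2-T23, described above with the GTPases and class I genes, are both among the 17. Iigp1 (3.99-fold), H2-D1 (1.74-fold) and Psmb8 (5.74-fold), genes of the same kinds, are among the 17 too. Nes, an intermediate filament of immature astrocytes, passed without control library 3 and in no other fit that left out a library. In the list of IL-1, TNF and NF-kB signalling 8 of 27 tested genes were called higher and none lower (median 0.59). This fell to 3 without control library 1 or 3AP library 1 and to 4 without control library 2 or 3AP library 2. Ptgs2, the inducible cyclooxygenase, rose from 0.687, 0.667 and 0.828 CPM to 5.25, 5.06 and 4.55 CPM, and both TNF receptor genes rose, Tnfrsf1a 2.08-fold and Tnfrsf1b 2.62-fold.

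Chemokines moved in both directions. Of 24 tested ligands and receptors 13 were called higher and 1 lower (median log2 fold change 1.92), and 16 more had too few reads. Ccl5 (chr11:83525778-83530518), which draws T cells and monocytes, had 3 counts in the control group and 716 in the 3AP group (ratio 240, 95% counting interval 81.7 to 1166). Its 3AP values were 19.1, 9.83 and 6.01 CPM. Ccl12 (chr11:82101845-82103399), a monocyte attractant, rose from 0.147, 0.257 and 0.341 CPM to 3.63, 6.52 and 4.60 CPM (log2 4.27, SE 0.37, edgeR adjusted p 3.2e-05). Cxcl10, an interferon-induced attractant of T cells, rose 23.5-fold, from 0.165 ± 0.122 to 4.03 ± 1.93 CPM. Per length, Ccl5 reached 70.5 TPM in 3AP, Ccl12 29.7 TPM and Cxcl10 7.90 TPM. Cxcl12, a homeostatic chemokine of vessels and meninges, was the gene that fell, from 62.6, 57.2 and 54.7 CPM to 40.3, 42.8 and 39.7 CPM (log2 -0.51, SE 0.08, edgeR adjusted p 0.0030). Cxcl12 did not pass when limma was run on TPM at either pseudocount.

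Most genes of myeloid signalling rose, and several genes that restrain immune cells rose too. Of 24 tested genes of myeloid signalling 18 were called higher and none lower (median log2 fold change 1.53). Ptprc (CD45), the phosphatase on all white blood cells and microglia, stood at 1.03, 1.95 and 0.731 CPM in control and 6.52, 5.94 and 6.35 CPM in 3AP (log2 2.34, SE 0.30, edgeR adjusted p 0.00052). Arhgdib, an inhibitor of small GTPases in blood cells, rose 2.89-fold, and the inhibitory phosphatase Ptpn6 (SHP-1) 3.83-fold. Of 16 tested checkpoint and costimulatory molecules 9 were called higher (median 1.33). Galectin-9 (Lgals9, chr11:78962979-78984924), a ligand of the inhibitory receptor TIM-3, rose from 5.50, 5.34 and 6.33 CPM to 20.5, 19.6 and 17 CPM (log2 1.73, SE 0.14, edgeR adjusted p 2.7e-05). The inhibitory receptor Pirb rose 8.91-fold, the sialic acid receptor Siglec1 8.99-fold, and Cd274, which encodes PD-L1, 2.78-fold, from 1.51 ± 0.185 to 4.19 ± 0.459 CPM. Of 24 lysosomal genes 10 were called higher and none lower (median 0.23). Without control library 1 or 3AP library 1 there were 5, and without control library 2 or 3AP library 2 there were 6. Cathepsin S (Ctss), which cuts the class II invariant chain, rose 2.47-fold, from 32.9, 30.3 and 34.9 CPM to 84.3, 73.4 and 84.4 CPM. The abundant cathepsin D (Ctsd) stood at 349 ± 36.6 and 390 ± 23.8 CPM and did not pass (edgeR adjusted p 0.47).

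**Figure D3:**
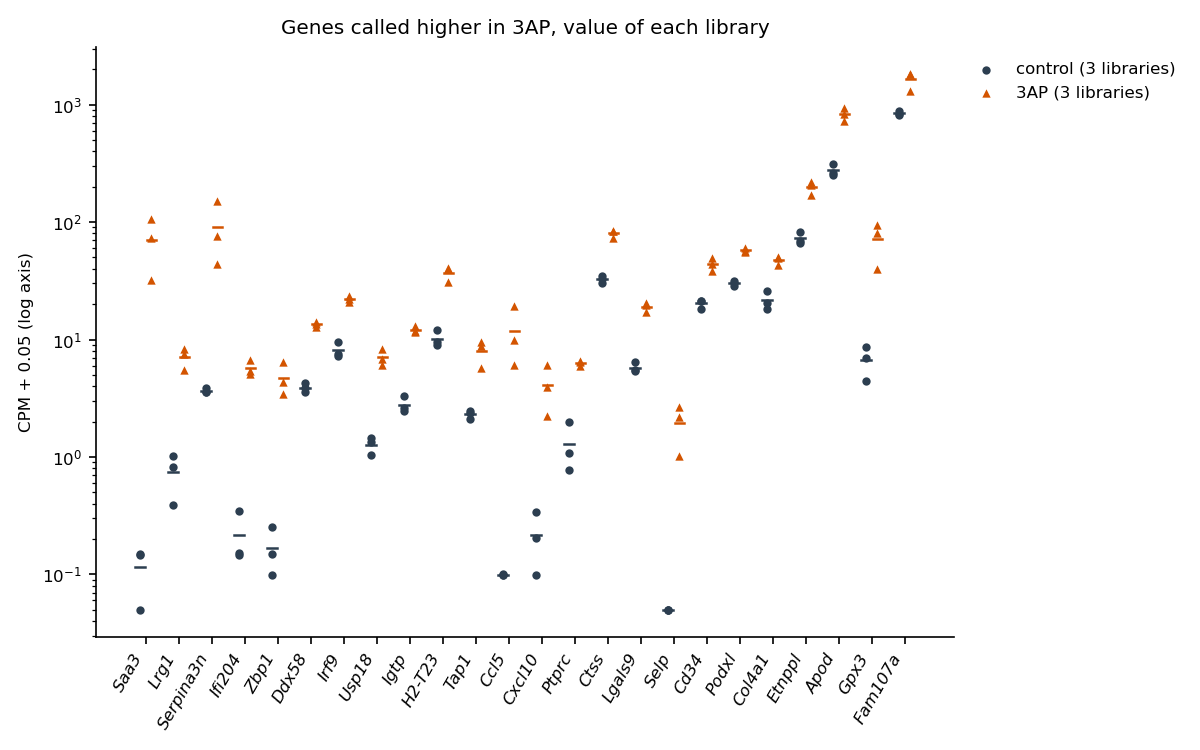
Each point is 1 library, control as circles and 3AP as triangles, and lines are group means, with CPM + 0.05 on a log axis. In all 24 genes the 3AP libraries lie above the control libraries, and the 3AP libraries lie farthest apart in Saa3 (31.8 to 106 CPM) and Serpina3n (43.9 to 150 CPM).

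Markers of several white blood cells rose with these groups, at low levels. The summed level of 18 homeostatic microglia genes was 210 to 226 CPM in control and 322 to 386 CPM in 3AP, and 6 of the 18 were called higher and none lower. Log2 fold changes of this list ran from -0.85 to 2.08, with a median of 0.66. Cx3cr1, the fractalkine receptor, rose 2.17-fold, and Itgam (CD11b) 4.23-fold, while P2ry12, a purinergic receptor of resting microglia, stood at 9.60 ± 1.67 and 6.93 ± 1.85 CPM (edgeR adjusted p 0.39). Of 13 tested monocyte genes 7 were called higher (median log2 fold change 2.36) and 1, Vcan, lower. Vcan missed the threshold without control library 1 or 2 or 3AP library 1 or 2. Chil3 rose from 0.0491, 0.257 and 0.341 CPM to 4.76, 3.89 and 2.62 CPM, and Plac8 from 0.0983 ± 0.128 to 2.41 ± 0.705 CPM. The monocyte list summed to 114 to 140 CPM in control and 145 to 188 CPM in 3AP. The neutrophil list summed to 4.07 to 6.87 CPM in control and 14.4 to 28.5 CPM in 3AP. Of its 7 tested genes 3 were called higher (S100a9, Retnlg and Csf3r), and Csf3r alone was called without control library 2. Retnlg also missed the threshold without control library 1 or 3AP library 1 or 2. Its granule proteases were near or at 0, with 1 and 0 counts of Mpo in control and 3AP and 0 counts of Elane in both. The lymphocyte list of 22 genes summed to 5.50 to 6.09 CPM in control and 9.20 to 11.6 CPM in 3AP. Of it 3 genes could be tested and none was called, and Cd8a had 0 counts throughout. The part of these cells in the other results was not tested.

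**Figure D4:**
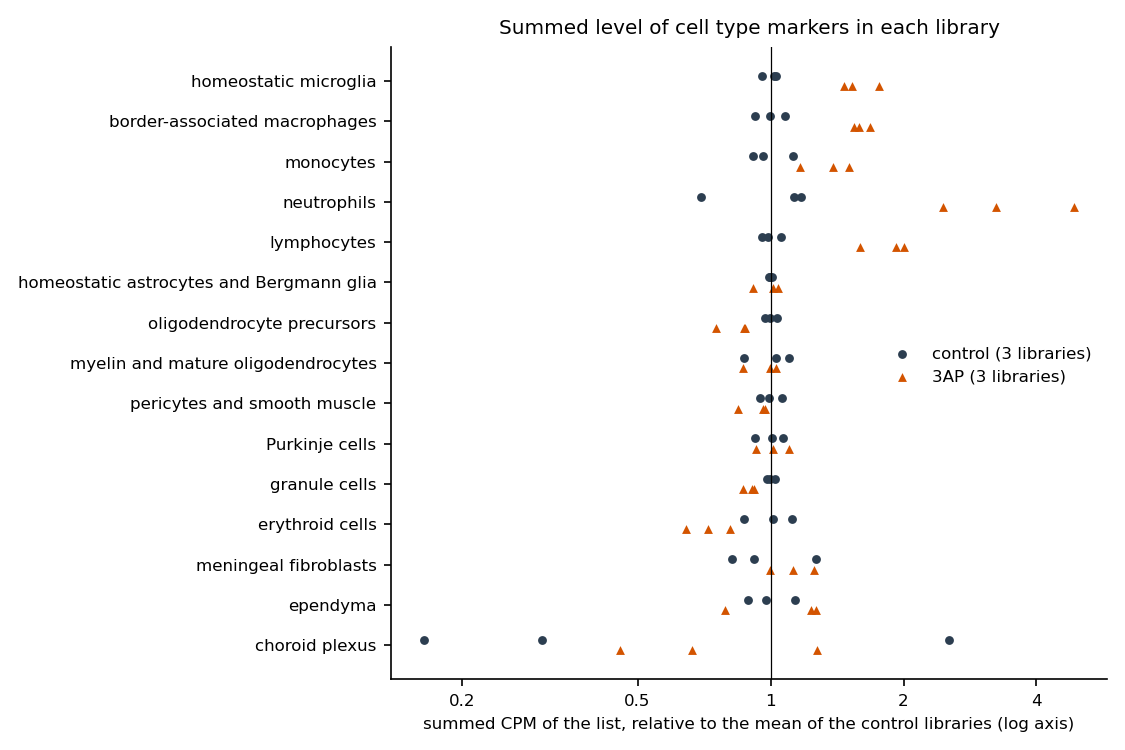
Points give the summed CPM of each marker list in 1 library, divided by the mean of the control libraries, on a log axis (circles control, triangles 3AP). Microglia, macrophage, monocyte, neutrophil and lymphocyte lists lie above the controls in all 3AP libraries, oligodendrocyte precursor, granule cell and erythroid lists lie below them, and the Purkinje cell and choroid plexus lists overlap.

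Many endothelial genes rose. Of 18 tested genes of adhesion and activation 11 were called higher and 1, the junction gene Jam2, lower (median log2 fold change 0.90). Jam2 was not called without control library 1 or 2 or 3AP library 1 or 2. P-selectin (Selp, chr1:164115264-164150026), which makes white blood cells roll on activated endothelium, had 0 counts in control and 2.60, 2.14 and 0.969 CPM in 3AP. Against the floor of 3 counts over the control group that is at least 39.2-fold higher. Icam1, to which leukocyte integrins bind, rose from 1.96, 1.13 and 1.90 CPM to 17.8, 13.4 and 10.4 CPM (log2 3.05, SE 0.28, edgeR adjusted p 5.0e-05). Von Willebrand factor (Vwf) rose 2.43-fold and Cd34 (chr1:194938821-194961292), a sialomucin of endothelium, 2.16-fold, from 20.3 ± 1.68 to 43.8 ± 5.29 CPM. Podxl and Egfl7, both made by endothelium and on none of the lists, rose 1.91-fold and 2.08-fold, each with an SD within groups of under 3 CPM. The basement membrane collagen Col4a1 rose from 18.1, 25.7 and 20.6 CPM to 49.6, 50.8 and 43.0 CPM.

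Other vessel genes fell. Itm2a (chrX:107397195-107403360), a membrane protein of brain endothelium, fell from 76.0, 69.4 and 84.5 CPM to 33.1, 37.9 and 40.4 CPM (log2 -1.05, SE 0.10, edgeR adjusted p 6.6e-05). Gkn3 (chr6:87383319-87388935), a marker of arterial endothelium, had the largest fall among called genes with a mean of at least 1 CPM in a group. It stood at 3.85 ± 0.586 CPM in control and 0.600 ± 0.243 CPM in 3AP, 6.35-fold lower. Fmo2, a flavin monooxygenase, was 3.59-fold lower, at 6.08 ± 0.933 and 1.69 ± 0.288 CPM. In the list of blood-brain barrier transporters and junctions 3 of 28 genes were called higher (Slc38a5, Cldn5 and Cdh5) and 4 lower (Slc2a1, Slc7a5, Tfrc and Itm2a), with a median log2 fold change of 0.05. Of the 4 lower calls, 2 were left without control library 1 and 1 without any other single library. None of 14 markers of pericytes and smooth muscle was called (median 0.11), where 4.93% of all tested genes were. Pdgfrb, the PDGF receptor of pericytes, stood at 21.3, 19.2 and 19.4 CPM in control and 25.3, 28.2 and 21.1 CPM in 3AP (edgeR adjusted p 0.15, and 0.040 without 3AP library 3).

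Extracellular matrix and TGF-beta genes split by member. Tnc (chr4:63959785-64047015), the matrix glycoprotein tenascin-C that Bergmann glia make, fell from 25.0, 22.1 and 22.4 CPM to 8.48, 8.71 and 8.87 CPM (log2 -1.41, SE 0.12, edgeR adjusted p 2.9e-05). Ltbp4 (chr7:27305140-27339720), which holds latent TGF-beta in the matrix, fell from 34.5 ± 3.70 to 13.5 ± 1.36 CPM, and its paralogue Ltbp2 rose 1.71-fold. The receptor Tgfbr2 rose from 18.1, 17.6 and 18.9 CPM to 29.4, 30.8 and 30.4 CPM, with little spread in either group. The BMP antagonist Nbl1 rose 2.12-fold. In the TGF-beta and BMP list 5 of 31 tested genes were called higher and 1 lower (median log2 fold change 0.04), with 3 higher without control library 1 or 2 or 3AP library 1 or 2. The elastic fibre protein Fbln5 rose 4.96-fold, from 10.1 ± 2.46 to 50.1 ± 13.2 CPM, and the proteoglycan Dcn 2.57-fold. The matrix protease Mmp3 had 2 counts in control and 305 in 3AP (ratio 153, 95% counting interval 42.1 to 1271), and its inhibitor Timp1 rose 34.7-fold. The elastase inhibitor Serpinb1a fell, at 18.9 ± 1.72 and 10.1 ± 0.798 CPM. Ltbp2 and Ltbp4 did not pass when limma was run on TPM of all rows above 0.

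Several genes known from astrocytes or oligodendrocytes rose. Etnppl (chr3:130617448-130635750), an astrocyte enzyme that breaks down phosphoethanolamine, rose from 69.4, 66.1 and 82.7 CPM to 221, 207 and 171 CPM (log2 1.46, SE 0.11, edgeR adjusted p 1.4e-05). Apod (chr16:31296192-31314808), a lipid carrier of oligodendrocytes and astrocytes, rose from 264, 249 and 313 CPM to 938, 835 and 723 CPM, a 3.02-fold change. Per length it stood at 1512 TPM in 3AP. Fam107a (chr14:8296270-8317607), an actin-binding stress protein of astrocytes, rose from 824, 891 and 834 CPM to 1831, 1822 and 1307 CPM, and stood at 1011 TPM in 3AP. Gpx3 (chr11:54902854-54910387), a secreted glutathione peroxidase, rose 10.9-fold, with 81.4, 95 and 39.8 CPM in 3AP against 4.42, 6.93 and 8.52 CPM in control. The ferritin heavy chain Fth1, which stores iron, rose 1.55-fold from 1575 ± 216 CPM, and the iron oxidase Heph 2.46-fold. In the list of iron, haem and copper handling 7 of 24 tested genes were called higher and 1, Tfrc, lower (median log2 fold change 0.19). The higher count was 4 without control library 1 or 2 or 3AP library 1 or 2, and Tfrc was not called without any 1 library. Phyhd1 rose 4.36-fold and the crosslinking enzyme Tgm2 2.48-fold, while glutamine synthetase (Glul) stood at 1308 ± 51.5 and 1490 ± 162 CPM (edgeR adjusted p 0.42).

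Genes that mark resting astrocytes and Bergmann glia fell in part. Of 30 genes of that list 5 were called lower (Aqp4, Hopx, Slc7a10, Ednrb and Nfia) and none higher, with a median log2 fold change of -0.06, and 3 were called lower without control library 1 or without any 1 of the 3AP libraries. Without 3AP library 3 there were also 3 called higher. The endothelin receptor Ednrb fell from 136, 131 and 123 CPM to 77.4, 79.3 and 68.5 CPM (log2 -0.80, SE 0.08, edgeR adjusted p 7.8e-05). Hopx, a homeobox-like gene of Bergmann glia, fell from 170 ± 10.5 to 100 ± 12.4 CPM. The growth factor pleiotrophin (Ptn) fell from 248, 231 and 243 CPM to 130, 119 and 155 CPM, and the fatty acid binding protein of radial and Bergmann glia, Fabp7, was 2.87-fold lower. The summed level of the list overlapped, at 11140 to 11310 CPM in control and 10258 to 11693 CPM in 3AP.

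Some genes of lipid synthesis fell by under 2-fold. Of 25 tested genes of sterol synthesis and uptake 8 were called lower and 1, Srebf1, higher (median log2 fold change -0.24). There were 4 lower without control library 1 or 3AP library 1 and 5 without control library 2 or 3AP library 2, and Srebf1 was lost without any 1 library other than 3AP library 3. Cyp51, which demethylates lanosterol, fell from 66.8, 63.0 and 67.6 CPM to 41.1, 40.7 and 43.1 CPM (log2 -0.66, SE 0.07, edgeR adjusted p 0.00014). The first committed enzyme of the pathway, Hmgcs1, was 1.59-fold lower. The desaturase Fads2, which makes long polyunsaturated fatty acids, fell from 127 ± 6.53 to 76.9 ± 4.41 CPM. Ch25h, which makes 25-hydroxycholesterol, rose instead, from 0.363 ± 0.0674 to 4.44 ± 1.47 CPM.

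In the oligodendrocyte lineage 3 of 22 precursor genes were called lower (Gpr17, Cacng4 and Vcan) and none higher, with a median of -0.28. Over all tested genes 1.18% were called lower. When 1 library was left out the count was 2 to 4. Vcan is the gene counted above in the monocyte list, and the limits given there hold here too. Cacng4, an AMPA receptor auxiliary subunit, fell from 36.8, 39.5 and 44.4 CPM to 23.1, 22.2 and 27.7 CPM. The list summed to 955 to 1018 CPM in control and 740 to 863 CPM in 3AP. Of 24 myelin and mature oligodendrocyte genes 2 were called higher (Apod and Anln) and 3 lower (Opalin, Ugt8a and Qdpr). Opalin, a myelin membrane glycoprotein, stood at 16.7 ± 1.07 and 8.62 ± 1.75 CPM, 1.94-fold lower. The summed levels of this list overlapped, at 7954 to 10034 CPM and 7909 to 9376 CPM. Anln was not called without control library 1 or 2 or 3AP library 1 or 3, and without 3AP library 3 there were 5 lower.

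Few genes of the neuronal lists passed the test. As 4.93% of all tested genes were called, lists of this size would hold few calls at that share. None of 28 Purkinje cell genes was called in edgeR (median log2 fold change -0.05), nor any of 25 genes of GABA and glycine transmission (-0.13) or 35 tested potassium channels (0.01). The Purkinje list summed to 14874 to 17184 CPM in control and 14883 to 17685 CPM in 3AP. Calb1 stood at 1253 ± 101 and 1105 ± 21.1 CPM (edgeR adjusted p 0.38). Of 22 granule cell genes 1, Calb2, was called lower (median -0.09), and it was not called without 3AP library 1. Without 3AP library 2 the count was 2. The granule cell list summed to 11730 to 12254 CPM in control and 10343 to 10952 CPM in 3AP, so that the groups did not overlap. Gabra6 stood at 638, 617 and 620 CPM in control and 456, 467 and 575 CPM in 3AP, below the controls in each library but short of the threshold (edgeR adjusted p 0.25). Such a position of every 3AP library below every control was found in 11% of all tested genes.

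Some neuronal and cytoskeletal genes fell. The beta-tubulin Tubb2b (chr13:34127008-34130354) fell 1.92-fold, from 169 ± 7.18 to 87.9 ± 4.94 CPM, and Tubb4a 1.44-fold, from 1105 ± 80.0 to 769 ± 27.2 CPM. Nrep, a neuronal protein linked to regeneration, fell from 983, 1032 and 1006 CPM to 613, 767 and 610 CPM. Shisa9, an AMPA receptor auxiliary subunit, fell 1.60-fold and the neurotrophin Ntf3 1.86-fold, from 8.42 ± 0.360 to 4.53 ± 0.704 CPM. The long noncoding RNA Mir670hg (chr2:94160636-94265103) was 2.45-fold lower, at 13.7 ± 2.34 and 5.59 ± 0.357 CPM. Reads of overlapping genes on opposite strands could not be told apart, since the strand setting is not given. Tubb4a and Shisa9 did not pass when limma was run on TPM of all rows above 0.

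**Figure D5:**
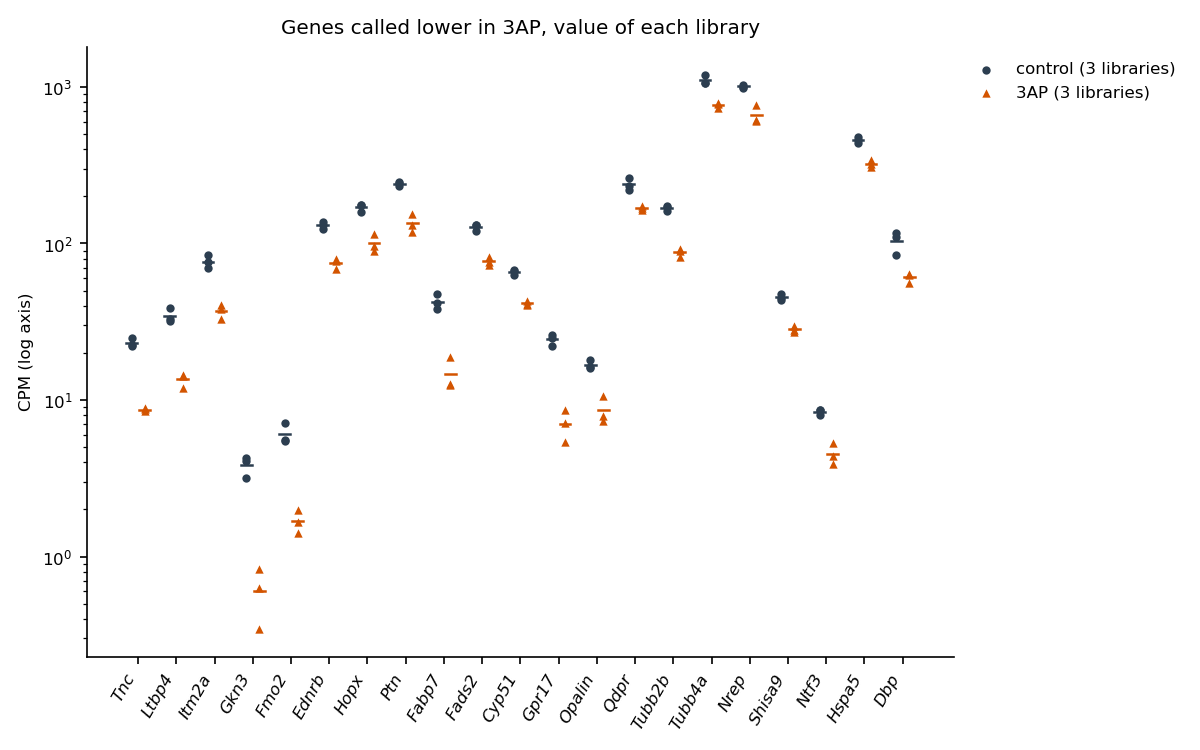
Each point is 1 library, control as circles and 3AP as triangles, and lines are group means, with CPM on a log axis. In all 21 genes the 3AP libraries lie below the control libraries, by 1.41-fold in Hspa5 and Qdpr to 6.35-fold in Gkn3.

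Some chaperones fell. Of 27 genes of chaperones and the unfolded protein response 6 were called lower and none higher (median log2 fold change -0.25), with 3 lower without 3AP library 1 or 2. Hspa5, which encodes BiP, the main chaperone of the endoplasmic reticulum, fell from 437, 460 and 476 CPM to 340, 323 and 306 CPM (log2 -0.50, SE 0.07, edgeR adjusted p 0.00071). Its partner in that compartment, Manf, was 1.47-fold lower and the cytosolic Hsph1 1.39-fold lower. None of 20 tested p53 target genes was called (median 0.01), where 4.93% of all tested genes were, and 1 was called higher without control library 3. Of 19 clock genes 2, Dbp and Ciart, were called lower and none higher. Dbp, an output gene of the clock whose level follows the time of day, stood at 110, 84.1 and 116 CPM in control and 55.9, 64.1 and 62.9 CPM in 3AP. Without 3AP library 3 there was also 1 clock gene called higher. Ciart was not called without control library 1 or 3 or 3AP library 1 or 2, and Dbp did not pass when limma was run on TPM of all rows above 0. The hour at which tissue was taken is not in the labels.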

How the data were processed

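Expected counts per gene and TPM values were deposited by the authors, 1 file per library. The submitters' processing notes name fastp, HISAT2, StringTie and RSEM on mm10. Roles, versions, annotation and strand setting were not given in the sources used here. Expected counts divide reads shared by near-identical genes. The 1884 rows without a gene name (0.526% to 0.660% of counts) were left out.

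Counts were rounded, filtered with filterByExpr, scaled by TMM and fitted over all 9 libraries with edgeR 4.0.16 (robust quasi-likelihood, 1 term per group; R 4.3.3), with Benjamini-Hochberg adjustment over 16634 genes and calls at 0.05. DESeq2 1.42.0, limma 3.58.1 on counts and on TPM, other filters and scalings, a replicate block, a choroid plexus covariate and leaving out each library were alternatives. The procedure was tested on simulated data with changes planted only in genes above a minimum mean count, so recovery among the scarcest genes was not tested. Members and lists were chosen with earlier results of these data known. Named genes were the 15 smallest p in each direction at 1 CPM or more, the 10 largest folds, the 10 highest levels, 4 per list with its defining uncalled members, and 10 in each direction at 10 CPM or more in no list. Serpina3n, Tap1, Vwf, Cxcl12, Anln, Jam2, Nes, Nfia, Slc2a1, Srebf1 and Tfrc were named after their values were seen. Some genes are not reported here. Gene coordinates are from RefSeq (GRCm38). The GC content and length used for an offset described below are from GENCODE vM21 transcripts. Counting intervals (95%) and floors (3 counts) cover counting error only.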

Additional observations from a re-analysis of the deposited data

How the results depend on the processing

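The 820 calls, 623 higher and 197 lower, ranged from 466 to 798 when 1 library was left out, with 381 to 643 higher and 85 to 155 lower. When limma was run on TPM of all rows above 0, 419 genes were called, 362 higher and 57 lower, with 249 changed at least 2-fold. Lower calls numbered 301 with DESeq2, and 72 and 71 with limma on filtered TPM at pseudocounts of 1 and 0.1. Same-numbered libraries did not deviate together (correlations of -0.086, -0.086 and -0.200), so no pairing by number was seen. With 3 libraries in each group, centred on their own mean, this check cannot exclude a pairing. A replicate block gave 580 calls, 459 higher and 121 lower. An offset for GC content and length, chosen after seeing the data, gave 1173 calls, 396 of them lower, so that 66.2% of calls were higher against 76.0%. It kept 792 of the 820 calls. DESeq2 kept 810, limma-voom 796, a fit of 6 libraries 768, the choroid plexus covariate 687 and the replicate block 571. Limma kept 514 and 494 on filtered TPM at those pseudocounts and 374 on TPM of all rows. Of genes described above, Tlr1, Tnfrsf1b, Cx3cr1 and Csf3r also missed the threshold on TPM of all rows. The cause of these shifts was not tested. With 3 libraries in each group, genes of a few counts were the least certain.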
